A study of Ovis aries with 18 samples.

Results

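The genes described here were those of molecular chaperones and protein folding enzymes, taken by gene symbol from a table of allele counts at SNPs in expressed sheep genes. The symbols covered the HSP70, HSP90 and small heat shock families, chaperonins, prefoldin, J-domain proteins, BAG and other co-chaperones, protein disulfide isomerases, lectin chaperones, FKBP and cyclophilin prolyl isomerases, with HSPG2 and chromosome X left out. They gave 295 SNPs in 78 genes, of 24355 SNPs in 5810 genes in all. The study asked where the 2 alleles of a gene differ in expression, called allelic imbalance (AI), in perirenal adipose tissue (PRAT). RNA from 18 pure bred merino fetuses, wild type, untreated and 132 days old, was sequenced, with 1 sample per fetus and a single condition. The group held 16 female and 2 male singletons by a common sire out of unrelated ewes kept on a maintenance diet. Such paternal half-sibs carry a limited set of paternal chromosomes, and the genotypes were called from the same RNA reads that were counted.

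Molecular chaperones bind unfolded or partly folded proteins and keep them from aggregating, often in cycles of ATP binding and hydrolysis that co-chaperones speed up or end. Cells raise many of them when proteins unfold, through heat shock factors in the cytosol and through the unfolded protein response in the endoplasmic reticulum (ER). In brown fat, which makes up much of the perirenal depot of a fetal lamb, mitochondria produce heat through UCP1, and mitochondrial chaperones fold the many proteins imported into them.

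The reads counted over all SNPs totalled from 2970824 in RS902 to 5334585 in RS917. At the chaperone SNPs where an animal was heterozygous, the reads per animal ran from 23634 to 61564 with a median of 44203. Each fetus was heterozygous at 126 to 180 of these SNPs, with a median of 155. The tissue label was compared with marker genes that carry SNPs, with the level of a gene taken as its mean reads per SNP per 1000000 counted reads of the animal. Of 8 brown adipocyte markers 5 had SNPs, and UCP1 had a lowest level of 1376, a median of 2474 and a highest of 4009. Of 8 adipocyte markers 4 had SNPs, and ADIPOQ ran from 1965 through a median of 2488 to 3077. Both kinds of marker were thus read in every fetus. SNPs were also found in 3 of 4 endothelial, 2 of 4 leukocyte, 1 of 7 muscle, 1 of 6 adrenal and kidney and 0 of 3 erythroid markers. Median levels were 73.5 for CDH5, 65.1 for KDR and 59.98 for VWF of endothelium, 5.68 for CD163 and 9.06 for CSF1R of leukocytes, 32.6 for MYH11 of muscle and 11.7 for STAR of the adrenal. The absence of a SNP does not show that a gene was silent.

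AI was common but mostly shallow in the chaperone genes. The reference share, which is the reads of the reference allele over all reads of the heterozygous animals, had a median of 0.518 over the 294 SNPs with a heterozygous animal, against 0.519 over all tested SNPs. The Poisson likelihood ratio test on summed reads, with p-values adjusted over the whole table and AI called under 0.05, called 116 of the 294, or 39.5%, where it called 38% of all tested SNPs. The reference allele was higher at 100 of them, against a background of 28.9% of tested SNPs, and the alternate allele at 16, against 9.01%. The reference allele was thus the higher one at 86.2% of the called chaperone SNPs and at 76.3% of the called SNPs of the table. When the null share was moved from 0.5 to the median of all tested SNPs, the split became 54 above and 43 below. That null lies next to the chaperone median itself, so a nearly even split follows from the choice and says nothing about the predominance of reference calls.

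A quasi-binomial F test, which takes animals as replicates and moderates their dispersion over all SNPs with limma, called 75 chaperone SNPs, 65 with the reference allele higher and 10 with the alternate allele higher. It called 24.5% of all tested SNPs and 25.5% of the chaperone SNPs. Shares differed between animals at 39 chaperone SNPs by the Pearson chi-square test, or 13.3%, against a background of 15.4%. At the gene level 46 of the 78 genes were called, against 53.7% of all genes tested. These counts lay near those of the table. Departures from an equal share had a median of 0.0298 in chaperone SNPs and 0.0339 in all, and among called SNPs of 0.0586 and 0.076. SNPs of a gene share reads and haplotypes within an animal, so they are not replicates of each other.

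**Figure D1:**
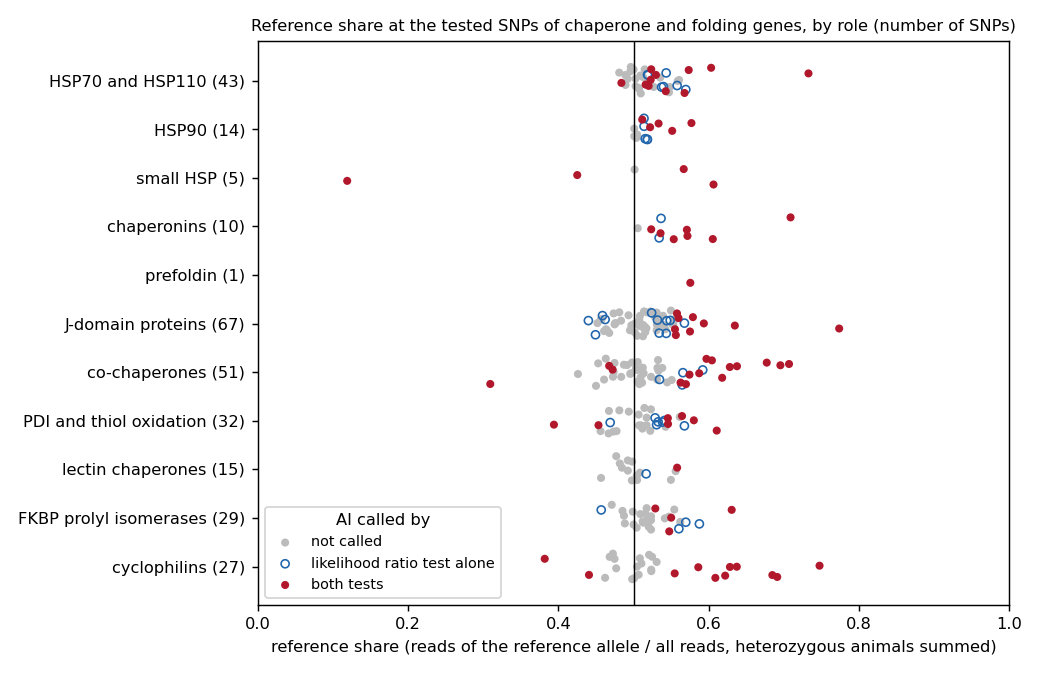
The reference share of each tested chaperone SNP, with heterozygous animals summed, is plotted on the horizontal axis for each role group. Grey points were not called, open blue circles were called by the likelihood ratio test alone and red points by both tests. Most points lie near 0.5, while single SNPs of HSPB1, DNAJB2, PPIC and HSP70 lie at 0.119, 0.773, 0.747 and 0.733.

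HSP70 proteins bind short hydrophobic stretches of client proteins, and HSP110 proteins serve as their nucleotide exchange factors. The group had 43 SNPs in 10 genes, of which the likelihood ratio test called 18, 17 of them with the reference allele higher, and the quasi-binomial test 11. The stress-inducible HSP70 gene on chromosome 20 held the widest imbalance of the group. Each test called 2 SNPs of the gene, and its 5 summed shares had a lowest value of 0.5 and a median of 0.52. At its synonymous SNP at position 26649584 the reference share of 15 heterozygous animals had a lowest value of 0.572, a median of 0.773 and a highest of 0.832. The reference allele was higher in 15 of 15 animals (permutation test against 0.5, two-sided, p = 6.1e-05), and the adjusted p of the quasi-binomial test was 6.76e-09. The dispersion between animals was 108, on a scale where 1 is the counting error of independent reads. This SNP and most others named here were picked for their departures or depth in the same reads. The permutation p-values, which are unadjusted, test the mean share over animals against 0.5 and are therefore no separate evidence of AI. Their smallest possible value is set by the number of animals. At position 26649275, a distance of 309 bp away, the summed share was only 0.523 over 14 animals. HSP70 has near-identical copies in mammalian genomes, so reads of several copies could mix at these positions and both values are uncertain.

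HSPA8, the constitutive cytosolic member, was called at 5 of 6 SNPs, each with the reference allele higher. At position 33234283 of chromosome 15 the share ran from 0.529 through a median of 0.569 to 0.581, above 0.5 in 12 of 12 animals. The SNP with the most reads of the group, at position 33237048, held 37129 reads and had shares from 0.483 through 0.497 to 0.509 (permutation test, p = 0.0508), and it was not called. SNPs of HSPA8 thus differed in whether the alleles were balanced, and processed copies of this gene are known, which makes its shares uncertain too. HSPA9, the mitochondrial member that draws imported proteins into the matrix, was called at 5 of 8 SNPs. In its 3′ UTR on chromosome 5 the share at position 47294385 was 0.522 to 0.58 with a median of 0.538, higher for the reference allele in 9 of 9 animals. At position 47294487 it was 0.471 to 0.507 with a median of 0.482, with the alternate allele higher in 6 of 7. In the 5′ UTR at position 47308998 it was 0.603 over 315 reads, above 0.5 in 8 of 8 animals (exact permutation test, p = 0.00781). HSPA9 was therefore called in both directions.

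HSPA12B, a distant member of the family expressed in endothelium, had a missense SNP at position 50784167 of chromosome 13 with shares from 0.514 through 0.566 to 0.637, higher for the reference allele in 10 of 10 animals. HSPH1, the cytosolic HSP110, was called at 3 of 11 SNPs by the likelihood ratio test, with shares of 0.537 to 0.543, and at 0 by the quasi-binomial test, where 3 had an unadjusted p under 0.05. HYOU1, the HSP110 of the ER, was called at 2 of 3 SNPs and likewise at 0 by the quasi-binomial test, where 2 had an unadjusted p under 0.05. Of these 2 tests, both exchange factors thus passed only the one that pools reads of different animals. At HSPH1 position 30065329 the reference allele was higher in 7 of 8 animals (exact permutation test, p = 0.0391).

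HSP90 proteins complete the folding of kinases and steroid receptors. The likelihood ratio test called 10 of 14 SNPs in 3 genes, all 10 with the reference allele higher, and the quasi-binomial test 5. HSPCA, an older symbol of the inducible cytosolic HSP90, was called at 8 of 11 SNPs on chromosome 18 and at 3 by the quasi-binomial test. The imbalance was slight, and the widest departure, at position 65642351, had shares from 0.509 through 0.534 to 0.554 with the reference allele higher in 6 of 6 animals. At position 65641766 the share ran from 0.479 to 0.547 with a dispersion of 6.11, and the exact permutation p was 0.219. TRAP1, the mitochondrial HSP90, had a wider departure at position 3032236 of chromosome 24, where shares ran from 0.523 through 0.586 to 0.619, above 0.5 in 6 of 6 animals. HSP90AB1, the constitutive cytosolic member, had a share of 0.504 at its single SNP and was not called. This group was read deeply, with a median of 1376 reads per heterozygous animal against 65 in the whole table, and the part of depth in its calls was not tested.

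Small heat shock proteins hold unfolded proteins without using ATP. They had 6 SNPs in 3 genes, and 4 of the 5 tested were called by both tests, 2 in each direction. Over all tested SNPs the likelihood ratio test called 38% and the quasi-binomial test 24.5%. The small heat shock SNPs had a median of 540 reads per heterozygous animal against 65 in the whole table. The part of depth in their calls was not tested. HSPB8, the partner of BAG3 in the removal of misfolded proteins, was heterozygous in all 18 animals at position 55726302 of chromosome 17, with shares from 0.576 through 0.603 to 0.637. The reference allele was higher in 18 of 18 animals there and the dispersion was 0.422. The animals thus lay close together at this SNP, whereas at the other SNPs of HSPB8 they spread widely. At position 55714434 the share ran from 0.378 through 0.497 to 0.564 in 5 animals with a dispersion of 11.1, so that animals lay on both sides of 0.5 and the sum of 0.501 was not called. CRYAB, an alpha-crystallin abundant in muscle, had shares from 0.368 through 0.4 to 0.499 at position 21674987 of chromosome 15, with the alternate allele higher in 7 of 7 animals.

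HSPB1, the classical small heat shock protein, stood at the far end of all 294 SNPs. At its missense SNP at position 34257463 of chromosome 24 only 3 animals were called heterozygous, and the reference allele held 9.37% of reads in RS905, 10.4% in RS947 and 15.1% in RS943. RS918 was called homozygous for the alternate allele with 8.46% of its reads from the reference allele, and RS903 had 0.804%. The 3 heterozygous calls thus continued a range of values rather than standing clear of it. With 3 animals the smallest p of the exact permutation test is 0.25. Whether the calls reflect true heterozygotes was not tested.

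Chaperonins enclose a client in a ring-shaped chamber, and prefoldin hands unfolded actin and tubulin to them. The likelihood ratio test called 9 of 10 chaperonin SNPs in 4 genes, or 90%, against 38% of all tested SNPs. The quasi-binomial test called 7, or 70%, against 24.5%, and each call had the reference allele higher. The chaperonin SNPs were read deeply, with a median of 796 reads per heterozygous animal against 65 in the whole table. The part of depth in their calls was not tested. HSPD1, the mitochondrial HSP60, had shares from 0.626 through 0.714 to 0.776 at the synonymous SNP at position 3677978 of chromosome 11, over 759 reads. The reference allele was higher in 7 of 7 animals (exact permutation test, p = 0.0156, the smallest 7 animals allow). At the missense SNP 486 bp away, with 8678 reads, the same animals lay between 0.558 and 0.599. The 2 SNPs therefore differed in the size of the imbalance without overlap between their ranges, and processed copies of HSPD1 are known. TCP1, a subunit of the cytosolic chaperonin, was called at all 4 of its SNPs on chromosome 8 by both tests. The share was widest at position 82706052, from 0.576 through 0.607 to 0.627 in 6 animals, and it was 0.571, 0.523 and 0.553 at positions 82706063, 82707287 and 82714292. The subunit gene CCT3 had shares from 0.501 through 0.533 to 0.589, above 0.5 in 14 of 14 animals, with a dispersion of 5.69. CCT8, another subunit, was called at 2 of 3 SNPs by the likelihood ratio test and at 0 by the quasi-binomial test, where 2 had an unadjusted p under 0.05. PFDN6, a prefoldin subunit, had shares from 0.504 through 0.545 to 0.672 at its single SNP, higher for the reference allele in 7 of 7 animals.

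**Figure D2:**
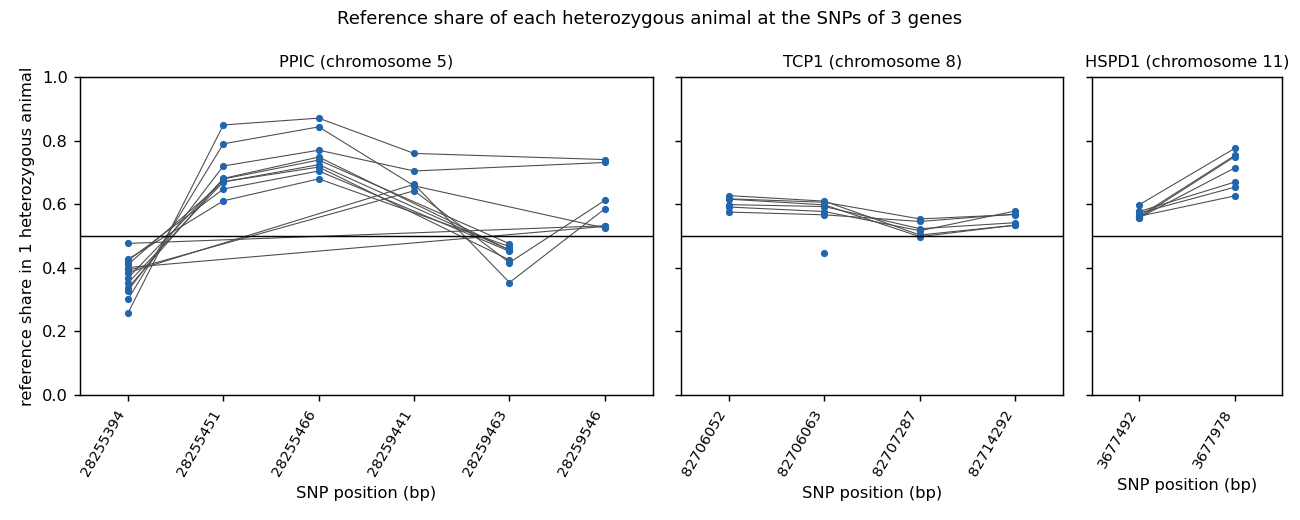
Each point is the reference share of 1 heterozygous fetus at 1 SNP of PPIC, TCP1 or HSPD1, ordered by position, and lines join the SNPs at which the same fetus was heterozygous. In PPIC the shares lie below 0.5 at positions 28255394 and 28259463 and above it at the other SNPs, while in HSPD1 every line rises.

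J-domain proteins deliver clients to HSP70 and start its ATP hydrolysis. Of 67 SNPs in 20 genes the likelihood ratio test called 20, 16 with the reference allele higher and 4 with the alternate allele higher, and the quasi-binomial test 9. DNAJB2, which passes clients on to the ubiquitin system, had the widest departure. At the synonymous SNP at position 220210571 of chromosome 2 the 18 fetuses had shares from 0.708 through 0.775 to 0.844, and the reference allele was higher in 18 of 18 (permutation test, p = 2e-05, the smallest these resamples can give). A SNP 42 bp away had a share of 0.514 and was not called. At the third SNP of the gene 10 animals had shares from 0.486 through 0.555 to 0.66. The wide imbalance of DNAJB2 was thus seen at 1 of its 3 SNPs.

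Among J-domain proteins of the ER, DNAJB11, a co-chaperone of the ER HSP70, was called at 5 of 8 SNPs, with shares from 0.543 through 0.587 to 0.674 at position 198844685 of chromosome 1 and the reference allele higher in 9 of 9 animals. DNAJC10, an ER reductase that helps to clear misfolded proteins, was called at 5 of 11 SNPs by the likelihood ratio test, 4 with the alternate allele higher and 1 with the reference allele higher. Its widest departure, at position 125888851 of chromosome 2, had shares from 0.349 through 0.464 to 0.504 and the alternate allele higher in 7 of 8 animals (exact permutation test, p = 0.0156). None of the 11 SNPs of DNAJC10 passed the quasi-binomial test, and 3 had an unadjusted p under 0.05 in it.

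DNAJC18, a membrane-anchored member, had a share of 0.635 over 386 reads, with animals from 0.5 through 0.653 to 0.741. DNAJC17, a nuclear member, had a missense SNP with shares from 0.442 through 0.587 to 0.727, above 0.5 in 11 of 14 animals (permutation test, p = 0.00378). DNAJB4, a cytosolic member, had 11 SNPs of which neither test called any and 1 had an unadjusted p under 0.05 in the likelihood ratio test and 0 in the quasi-binomial test. Its lead SNP had shares from 0.442 through 0.571 to 0.652. DNAJB4 thus had as many SNPs as DNAJC10 and no call.

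Co-chaperones of the BAG family release nucleotide from HSP70, and AHSA1 stimulates the ATPase of HSP90. The likelihood ratio test called 19 of 51 SNPs in 11 genes and the quasi-binomial test 15. Those calls gathered in 3 genes, since BAG1, BAG5 and BAG6 held 17 of the 19. BAG1, which couples HSP70 to the proteasome, had 5 called SNPs in its 3′ UTR on chromosome 2 from position 37675954 to 37675961, each heterozygous in 18 animals. The first had shares from 0.55 through 0.687 to 0.844, while its neighbour at position 37675955 had 0.136 through 0.325 to 0.45. Reference and alternate alleles were thus each the higher one in 18 of 18 animals at adjacent bases. Another SNP lay within 5 bp of 25.5% of the co-chaperone SNPs and of 10.4% of all SNPs. The part of read alignment at such SNPs was not tested.

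BAG6, which guards membrane proteins before insertion, lies on chromosome 20 in the MHC interval, as does HSP70. Its SNPs at positions 26789774 and 26789776, heterozygous in 18 fetuses, had summed shares of 0.618 and 0.628, whereas those at positions 26789771 and 26789773 had 0.472 and 0.468. At position 26789776, a missense SNP, animals ran from 0.551 through 0.627 to 0.711 (permutation test, p = 2e-05, the smallest these resamples can give). BAG5, chosen after its values were seen, was called at 7 of 10 SNPs with summed shares of 0.562 to 0.604 and heterozygotes numbering 15 or 16. BAG3, a heat shock factor target, had 6 SNPs and no call by either test, also at an unadjusted p under 0.05, with shares from 0.391 through 0.517 to 0.619 at its lead SNP. Of 27 chaperone SNPs heterozygous in 15 or more fetuses, 18 lay in co-chaperone genes. The share of such SNPs was 9.18% of tested chaperone SNPs and 9.94% of the table, and how far these calls rest on true heterozygotes was not tested.

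Protein disulfide isomerases form and rearrange disulfide bonds in the ER, and ERO1 enzymes reoxidise them. Of 32 SNPs in 10 genes the likelihood ratio test called 14, 11 with the reference allele higher, and the quasi-binomial test 7. PDIA4, an isomerase with several thioredoxin domains, was called at 5 of 9 SNPs on chromosome 4, 4 with the reference allele higher and 1, at position 111555791 with a summed share of 0.469, with the alternate allele higher. The quasi-binomial test called 3 of them, each with the reference allele higher. At the missense SNP at position 111565473 the shares were 0.524 to 0.621 with a median of 0.6, above 0.5 in 5 of 5 animals, where the exact permutation test cannot go below 0.0625. PDIA5, on chromosome 1, was called in both directions by both tests. Its missense SNP at position 185787382 had shares from 0.271 through 0.402 to 0.545, lower for the reference allele in 11 of 12 animals, while the synonymous SNP at position 185724363 ran from 0.471 through 0.659 to 0.706. TXNDC9, a regulator of the cytosolic chaperonin, was also called both ways, with a share of 0.453 at position 101933091 of chromosome 3 and 0.541 at position 101937319. The second of these was called by the likelihood ratio test alone.

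Lectin chaperones hold glycoproteins in the ER until they are folded, and UGGT1 marks unfolded ones for another round. The likelihood ratio test called 2 of 15 SNPs in 3 genes and the quasi-binomial test 1. CANX, the membrane-bound calnexin, had shares from 0.484 through 0.56 to 0.62 at a 3′ UTR SNP of chromosome 5, above 0.5 in 12 of 14 animals. CALR, the soluble calreticulin, had shares from 0.477 through 0.512 to 0.556 over 10015 reads (exact permutation test, p = 0.0586). UGGT1 had 10 SNPs, none called by either test, also at an unadjusted p under 0.05, and at its lead SNP shares spread from 0.375 through 0.546 to 0.8 over 277 reads. The group had a median of 31.7 reads per heterozygous animal and a median departure of 0.0154 from an equal share, and the part of depth in its few calls was not tested.

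FKBP prolyl isomerases had 29 SNPs in 7 genes, of which the likelihood ratio test called 8 and the quasi-binomial test 4. FKBP8, anchored in the outer mitochondrial membrane, led them at position 4414404 of chromosome 5, with shares from 0.609 through 0.619 to 0.675 and the reference allele higher in 9 of 9 animals. The adjusted p of the quasi-binomial test was 3.94e-10 there. FKBP15, an endosomal member, had the most SNPs of the chaperone genes with 14, of which 2 were called, neither by the quasi-binomial test, where 1 had an unadjusted p under 0.05. At position 10477295 of chromosome 2, a missense SNP of FKBP15, shares ran from 0.395 through 0.595 to 0.727. The range was wider at the FKBP15 SNP, with 257 reads in all against 4815, but the dispersion was similar, 1.55 against 1.48 at FKBP8.

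Cyclophilins had 27 SNPs in 6 genes, and the same number, 11, was called by the likelihood ratio test and by the quasi-binomial test. PPIC, a cyclophilin of the secretory pathway, was called at all 6 of its SNPs by both tests. At position 28255466 of chromosome 5 the shares were 0.68 to 0.871 with a median of 0.739, higher for the reference allele in 9 of 9 animals (exact permutation test, p = 0.00391). Summed shares were 0.691, 0.685 and 0.609 at positions 28255451, 28259441 and 28259546, with the reference allele higher in each heterozygous animal. They were 0.382 and 0.441 at position 28255394 and at the missense SNP at position 28259463, with the alternate allele higher in 13 of 13 and 8 of 8 animals. Every heterozygous fetus thus lay on the same side at a given PPIC SNP, and the side changed from SNP to SNP.

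Of the other cyclophilins, PPIE, a spliceosome component, was called at 1 of 11 SNPs, with shares from 0.488 through 0.63 to 0.778 at position 14158949 of chromosome 1. PPIL3 had 0.628 and 0.622 at its 2 SNPs in 5 animals each, where the exact permutation test cannot go below 0.0625. PPIL2 had shares from 0.545 through 0.583 to 0.625 at position 71330416 of chromosome 17, above 0.5 in 8 of 8 animals, over 302 reads in all. Its other SNP, at position 71332120, had a summed share of 0.51 with 3 of 8 animals on the alternate side and was not called. PPIL2 animals were thus on 1 side at 1 of its 2 SNPs alone.

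Alleles of a gene on the same chromosome copy are read from the same transcripts. Reference alleles were therefore placed on the same or on opposite chromosomes from the genotypes of all animals, an approach added after the data were seen. For 64 pairs of the lead SNP of a gene with another SNP, both were called by the likelihood ratio test, and the placing was found for 33 pairs in 19 genes. In 18 pairs the reference alleles were on the same chromosome, and 17 of these had the same allele type higher at both SNPs. The exception was DNAJC10 at positions 125888851 and 125891269. In 15 pairs the reference alleles were on opposite chromosomes, and 5 of these had opposite directions. The reference allele was higher at both SNPs in the other 10, in DNAJB11, HSP70, HSPA8, HSPA9, HSPD1, HYOU1 and PDIA4. These directions are those of summed reads, and single animals were divided in some pairs. In the TXNDC9 pair, counted among those with opposite directions, 6 animals had the same direction at both SNPs and 6 opposite ones. In the PDIA4 pairs, counted among those with the reference allele higher at both, the numbers were 2 and 2 with position 111562217 and 3 and 2 with position 111565523.

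Because most called SNPs had more reads of the reference allele, pairs on the same chromosome would mostly share a direction whatever the placing, and their count tells little. Pairs on opposite chromosomes are less bound by this, but neighbouring SNPs can be covered by the same reads. PPIC had such pairs that followed the placing. In PPIC the reference alleles at positions 28255466 and 28255451 lay together and were both higher in 9 of 9 animals. That at position 28255394 lay on the other chromosome and was lower in the same 9. These positions are close enough for the same reads to cover them, so their directions are not independent. In TCP1 the reference allele at position 82706052 lay together with those at the other 3 SNPs, so no pair of this kind was there. HSPD1 did not follow it, for its reference alleles lay on opposite chromosomes and both were higher in 7 of 7 animals. In HSPA9 the pair at positions 47294385 and 47294487, 102 bp apart, followed it in 4 of 4 animals. The pairs of position 47294385 with 47298577 and with 47308998 went against it, in 9 of 9 and 5 of 5 animals. The part of read alignment was not tested, neither in the pairs that followed the placing nor in those that went against it.

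The level of these genes varied between fetuses about as much as that of other genes, with a few exceptions. Over the 18 animals the median coefficient of variation (CV) of the level was 15.2% in the 78 genes and 15.5% in all 5810. It exceeded the 95th percentile of the table, 32.9%, in 6 of the 78 genes, and in 4 when RS943 was left out. HSPA9 had the lowest, 5.58%, with levels from 322 through 362 to 398. HSP70 had the highest, 82.7%, with levels from 18.6 through 104 to 494, and only 12 genes of the table had a higher one. HSPH1 followed with 76.9% and levels from 15 through 22.4 to 112, and BAG3 with 52.7% and levels from 9.46 through 13.1 to 45.7. AHSA2 had 42.5%, CRYAB 38.8% and ERO1LB, an ER oxidase, 34.1%, whereas HSPA8, HSPCA and HSPB1 were at 26.1%, 25.02% and 21.9%. In bulk tissue, fewer cells of a type and less RNA per cell cannot be told apart.

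The highest value of HSP70, HSPH1 and BAG3 came from the same fetus, the female RS943. HSP70 reached at most 239 in any other animal, HSPH1 42.2 and BAG3 17.7, so RS943 stood clear of them in each gene. Against the median of the other animals its level was 4.77 times in HSP70, 5.02 times in HSPH1 and 3.52 times in BAG3, and with median-of-ratios size factors 4.99, 5.48 and 3.65 times. RS943 was also the highest animal for HSPCA, with 644 against a range of 263 to 514 in the others, and for HSPB1, with 366 against 171 to 273. HSPA8 was less distinct, with 895 in RS943 and up to 879 elsewhere. AHSA2, of the family of HSP90 ATPase activators, reached 17.6 in RS943 and at most 12.6 elsewhere. These genes encode cytosolic chaperones and their partners, and FKBP11 and DNAJB11 of the ER were also highest in RS943. The cytosolic HSP90AB1 was highest in RS905, at 397 against 392 in RS943.

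Without RS943 the CV was 51.9% for HSP70, 34.2% for HSPH1 and 17.5% for BAG3, so the wide spread of BAG3 rested almost wholly on this animal and that of HSP70 and HSPH1 in part. RS943 was the highest of 18 fetuses in 15 of the 78 genes, where the median animal was highest in 4, and in 210 of all 5810 genes, where the median animal was highest in 267. With size factors it was highest in 19, and DNAJA4 then had its highest level in RS905. Its counted reads, 3695745, were the second fewest. Its summed levels were 2804 for brown adipocyte markers, 3022 for adipocyte, 189 for endothelial and 15 for leukocyte markers, where the medians of all animals were 2674, 3276, 203 and 15.4. For the muscle marker MYH11 it had 14.3 and for the adrenal marker STAR 12.6, against medians of 32.6 and 11.7. The part of cell makeup, handling and depth in its levels was not tested.

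RS910 lay at the other end, as the lowest of 18 fetuses in 12 of the 78 genes, among them HSPH1, BAG3, HSPA8, HSPCA, HYOU1 and CALR. The median animal was lowest in 4 and RS905 in 9. Over all 5810 genes RS910 was lowest in 383 and RS905 in 883, where the median animal was lowest in 272.5. For HSP70 the lowest animal was RS903. CRYAB varied apart from this pattern, with levels from 32.1 in RS953 through 75.9 to 150 in RS947. At the HSP70 SNP at position 26649584 RS943 also had the highest reference share, 0.832. It held 6912 of the 29994 reads, and the summed share was 0.733 with it and 0.703 without it, while the mean over animals was 0.724 and 0.717.

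**Figure D3:**
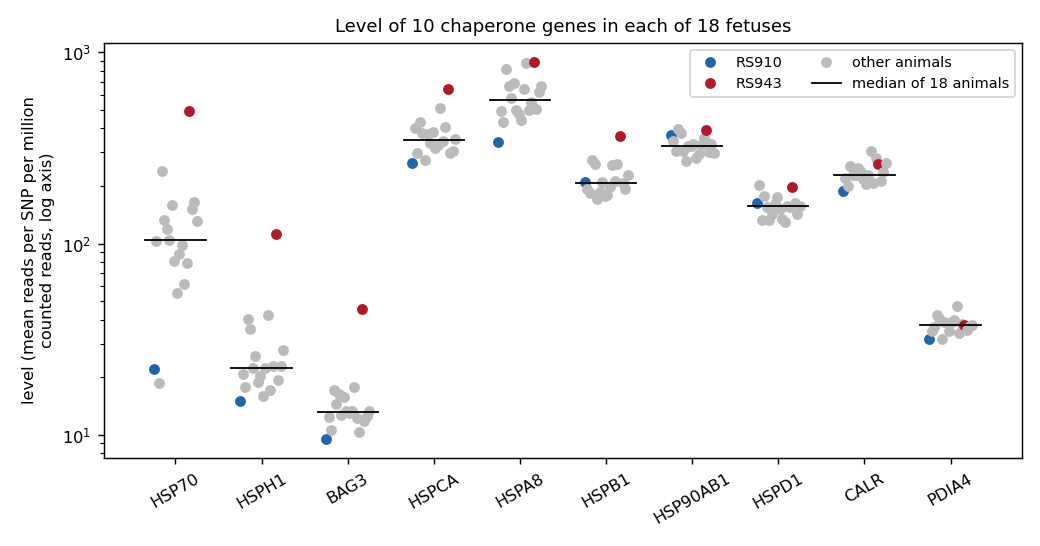
The level of 10 chaperone genes, as mean reads per SNP per 1000000 counted reads on a log axis, is shown for each of 18 fetuses, with the median as a line, RS943 in red and RS910 in blue. RS943 lies above all other fetuses for HSP70, HSPH1, BAG3, HSPCA, HSPA8 and HSPB1, at 494 in HSP70. It lies within the others for HSP90AB1, HSPD1, CALR and PDIA4.

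The chaperone SNPs also shared features that did not enter their choice. Synonymous SNPs made up 66.8% of them against 57.0% of the table, missense SNPs 16.9% against 19.8% and 3′ UTR SNPs 12.2% against 14.2%. Of the tested missense SNPs 16 of 49 were called by the likelihood ratio test, or 32.7%, against 41.1% of missense SNPs in the table. For synonymous SNPs it was 82 of 197, or 41.6%, against 34.4%. The median depth was 96.3 reads per heterozygous animal at chaperone SNPs and 65 at all, and the median dispersion was 1.30 and 1.41. Chaperone SNPs were thus read more deeply and were more often synonymous than the SNPs of the table.

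Other genes of folding and stress responses, such as unfolded protein response sensors, collagen hydroxylases, tubulin cofactors and glycan-processing enzymes, came from a list of 87 symbols, of which 53 had SNPs. Among their 238 SNPs the likelihood ratio test called 84, or 35.3%, against 38% of all tested SNPs. The reference allele was higher at 73 of the called SNPs, or 86.9%, against 76.3% in the table, and the alternate allele at 11. The quasi-binomial test called 56, or 23.5%, against 24.5%. Of the 53 genes 32 were called, against 53.7% of all genes tested. These counts of calls lay near those of the table. LRPAP1, the chaperone of the LDL receptor family, had a missense SNP at position 114765502 with shares from 0.758 through 0.851 to 0.911, higher for the reference allele in 13 of 13 animals. LMAN1, a cargo receptor between ER and Golgi, had shares from 0.75 through 0.847 to 0.897 at position 58517627 in 9 animals. PLOD2, a collagen lysyl hydroxylase, had shares from 0.576 through 0.696 to 0.754 at position 240502949. These examples, chosen after their values were seen, exceeded most departures in the chaperone genes, while the list as a whole had a median reference share of 0.523.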

How the data were processed

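The authors deposited, for each SNP and animal, the count of reads of the reference and the alternate allele and a genotype call, without normalization. Per the study's methods, reads were aligned to Oar v3.1 with STAR (version not given in the sources used here), SNPs and genotypes were called with GATK 3.4-46 from the same reads, and SNPs needed 10 or more reads per allele in 5 or more animals. Counted over heterozygous animals, that filter held at 24079 SNPs, or 98.9%. Columns of the authors' own comparison (a chi statistic, a p-value, the higher allele and its proportion) hold their findings and were not used. The column headed PS910 was taken as the animal titled RS910. Chaperone genes and the lists were chosen with earlier results of these data known.

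Reads were summed over animals called heterozygous and tested by the Poisson likelihood ratio test, with Benjamini-Hochberg adjustment over all SNPs of the table. The quasi-binomial F test took its dispersion from limma 3.58.1 (prior degrees of freedom 9.93, dispersion at least 1). Between-animal heterogeneity was a Pearson chi-square. The gene p was the smallest p times the number of its tested SNPs. Per-animal shares were tested against 0.5 by two-sided sign-flip permutation, exact where all sign flips numbered fewer than 100000 and otherwise with 100000 resamples. The tests were checked on simulated counts. Python 3.11.15, numpy 2.4.6, scipy 1.17.1, pandas 2.3.3 and matplotlib 3.10.9 were used.

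Named genes were, among chaperone SNPs, the 12 with the widest departure called by both tests at 5 to 14 heterozygous animals; the 6 with the most SNPs; up to 8 called in both directions; the 6 with the most reads at a SNP; the top gene of each role group; the 6 with the largest dispersion; genes with stop, start or splice site changes, of which there were none; the 4 widest at 15 or more heterozygous animals; up to 6 with missense SNPs called by both tests; and the 4 with at least 5 SNPs and the smallest share called. Genes outside this rule are CRYAB, BAG5, CCT8, HYOU1, HSP90AB1, AHSA2, ERO1LB, DNAJA4 and FKBP11, named after their values were seen.

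Chromosome placing came from haplotype counts over all animals with a Dirichlet prior, accepted at a posterior of 0.95. Placing and levels were added after the data were seen. Symbols were looked up in RefSeq genes of assembly ARS-UI_Ramb_v3.0, used for names alone, with 72 matched, 1 by synonym (HSP70) and 5 unmatched. Coordinates are those of Oar v3.1. Alternatives varied the threshold, null share, coverage minimum, depth, test, neighbouring and mostly heterozygous SNPs, low-depth animals and each animal. Those for levels, added after the data were seen, varied the scaling, the summary over SNPs and RS943, which was also left out of the summed HSP70 share.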

Additional observations from a re-analysis of the deposited data

Results flagged for a closer look

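Among 30 named SNPs with 4 to 10 heterozygous animals, 2 had an animal far from the nearest other for the range of its group, and chance gives about 1 such group in 20. At TCP1 position 82706063 RS937 had the lowest reference share of 7 animals, 0.447, while the reference allele was higher in the other 6. At the other TCP1 SNPs of the table RS937 was called homozygous for the alternate allele. At HSPCA position 65642060 RS918, a male fetus, had the highest reference share of 10 animals, 0.543, against a median of 0.51. The departure of RS937 lay on the other side of 0.5, and that of RS918 on the side of most animals.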

How the results depend on the processing

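No paired analysis was possible because the 18 fetuses form a single group. Down-sampling each heterozygous animal to 50 reads called 55 SNPs, 50 with the reference allele higher and 5 with the alternate allele higher, and 28 genes, for which fewer reads were tested by construction. The quasi-binomial F test called 75, 65 and 10. With the null share at the median of all tested SNPs, 54 SNPs were above it and 43 below, or 55.7% above, and HSPCA position 65642060, with a mean share over animals of 0.513, changed direction. Heterogeneity at an unadjusted p under 0.05 was found at 73 SNPs in place of 39. The median distance from 0.5 was 0.0235 where 20 reads per allele were required in 5 heterozygous animals, in place of 0.0298. The cause was not tested for the last of these. Of 286 counts per role group under the alternatives, 22 were classed as moved. Leaving out each animal in turn gave 108 to 119 called SNPs, 93 to 102 and 14 to 19 by direction, 44 to 47 genes, 69 to 77 SNPs by the quasi-binomial test, 29 to 38 with heterogeneity, 83.2% to 87.2% with the reference allele higher, a median distance of 0.029 to 0.0307 and 24 to 30 named SNPs past the permutation threshold. Of 164 values at named SNPs under the other alternatives, 148 kept their direction and side of the threshold, 14 no longer passed it, 1 newly passed it and 1 changed direction. Leaving out an animal ended the call in 54 of 384 values and gave a call in 5, with no change of direction. The calls that were lost were of FKBP15, HSPH1, PDIA5 position 185724363, PPIE, HSPA9 position 47294487, HSPCA position 65642351, TRAP1 and both named TCP1 SNPs, several of which leave 5 animals, too few for the exact test to pass.

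Reads, not molecules, were counted, and the part of alignment to the reference allele in the shares was not tested.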
